A study of Arabidopsis thaliana with 12 samples.

Results

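Expansins and xyloglucan endotransglucosylase/hydrolases (XTHs) are proteins of the plant cell wall that are known for their part in wall loosening. Alpha-expansins (EXPA) let cellulose microfibrils and the xyloglucan that coats them slip past each other at acid pH, without cutting either polymer. XTHs cut xyloglucan chains and join the cut end to another chain or to water, so that the wall can be remodelled while it grows. Both families are large in Arabidopsis thaliana, and their members differ in tissue and in the signals that they answer to. The 41 genes described here are 19 alpha-expansin genes (EXPA1 to EXPA18 and EXPA20) and 22 XTH genes, taken from a list of gene identifiers and all found among the 37885 genes counted. All 41 had at least 1 count in the 12 libraries. In the count table's gene names, 4 of them go by another name, namely EXP3 for EXPA3, TCH4 for XTH22, XTR6 for XTH23 and EXGT-A3 for XTH27.

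The libraries came from whole seedlings, 7 days old, that had been grown untreated in continuous light on 1/2 MS agar with no sucrose, and the study compared 3 genotypes with 4 biological replicates each. Col-0 is the wild-type accession. The second genotype carries the prt6-1 allele of PRT6, an E3 ligase of the N-degron pathway that removes group VII ERF (ERFVII) transcription factors when oxygen is present. The third, prt6 erfVII, carries prt6-1 together with T-DNA insertion alleles of the 5 ERFVII genes (HRE1, HRE2, RAP2.2, RAP2.3 and RAP2.12). Each mutant is a single line, and no erfVII genotype with a working PRT6 was sequenced, so prt6 erfVII differs from Col-0 in 6 genes. Each library held 23156637 to 30582461 counts. Levels are given as CPM, counts scaled to the library's size after TMM normalization, and n is 4 libraries per genotype throughout. The transcript of PRT6 was at 56.3 to 65.2 CPM in Col-0, at 45.1 to 76.4 CPM in libraries labelled prt6 and at 7.22 to 10.1 CPM in prt6 erfVII, so a lower level of the target does not bear out the first mutant's label, and its libraries are referred to as labelled prt6. In prt6 erfVII, HRE1 had no count in any library, HRE2 and RAP2.3 were at 0 to 0.0742 and 0.371 to 0.944 CPM, and RAP2.12 and RAP2.2 were at 48.1 to 53.9 and 56.4 to 61.1 CPM, each below every other library. Replicate 4 of prt6 stood apart from its 3 replicates (chi-square per degree of freedom 12.5, 14.6 and 15.8, against 3.97 to 11.8 for the other pairs of replicates).

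In prt6 erfVII the members moved in both directions. Most alpha-expansins that changed were lower in prt6 erfVII than in the other genotypes, whereas more XTH genes were higher than lower. Each comparison was fitted by edgeR's quasi-likelihood test on its own 8 libraries, with an adjusted p (Benjamini-Hochberg, over all genes tested) under 0.05 as the threshold, and a positive log2 fold change means a higher level in the genotype named first. In prt6 vs prt6 erfVII, 40 members passed the filter on low counts, of which 14 were higher in libraries labelled prt6 and 13 were lower. Over all 20857 genes tested, 14.7% were higher and 16.6% were lower. The libraries of both genotypes did not overlap for 28 of the 40 members, against 31.2% of all genes tested. In Col-0 vs prt6 erfVII, 39 members were tested, and 17 were higher in Col-0 and 13 lower, against 18.7% and 18.5% of 20747 genes. Here the libraries did not overlap for 27 members, against 34.8% of all genes. These comparisons share the 4 prt6 erfVII libraries, so they are not independent of each other. In prt6 vs Col-0, 39 members were tested, 3 were higher in libraries labelled prt6 and 4 lower, against 1.09% and 1.09% of 20899 genes, and 12 did not overlap, against 7.76%. Without prt6 replicate 4, the members called were 14 higher and 13 lower in prt6 vs prt6 erfVII, and 5 higher and 6 lower in prt6 vs Col-0. The calls among all genes in prt6 vs Col-0 rose as well, from 227 higher and 228 lower to 576 and 655.

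The median absolute log2 fold change was 0.55 over the members and 0.19 over all genes in prt6 vs prt6 erfVII. For Col-0 vs prt6 erfVII these values were 0.45 and 0.20, and for prt6 vs Col-0 they were 0.21 and 0.09. By family, 8 of 18 tested alpha-expansins were higher and 2 lower in prt6 vs prt6 erfVII, with a median log2 fold change of 0.32, while of the 22 XTH genes 6 were higher and 11 lower, with a median of -0.23. The same medians in Col-0 vs prt6 erfVII were 0.45 over 17 alpha-expansins, of which 10 were higher and 3 lower, and -0.17 over 22 XTH genes, of which 7 were higher and 10 lower. Over all genes tested the median lay between 0.00 and 0.01 in the 3 comparisons.

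**Figure D1:**
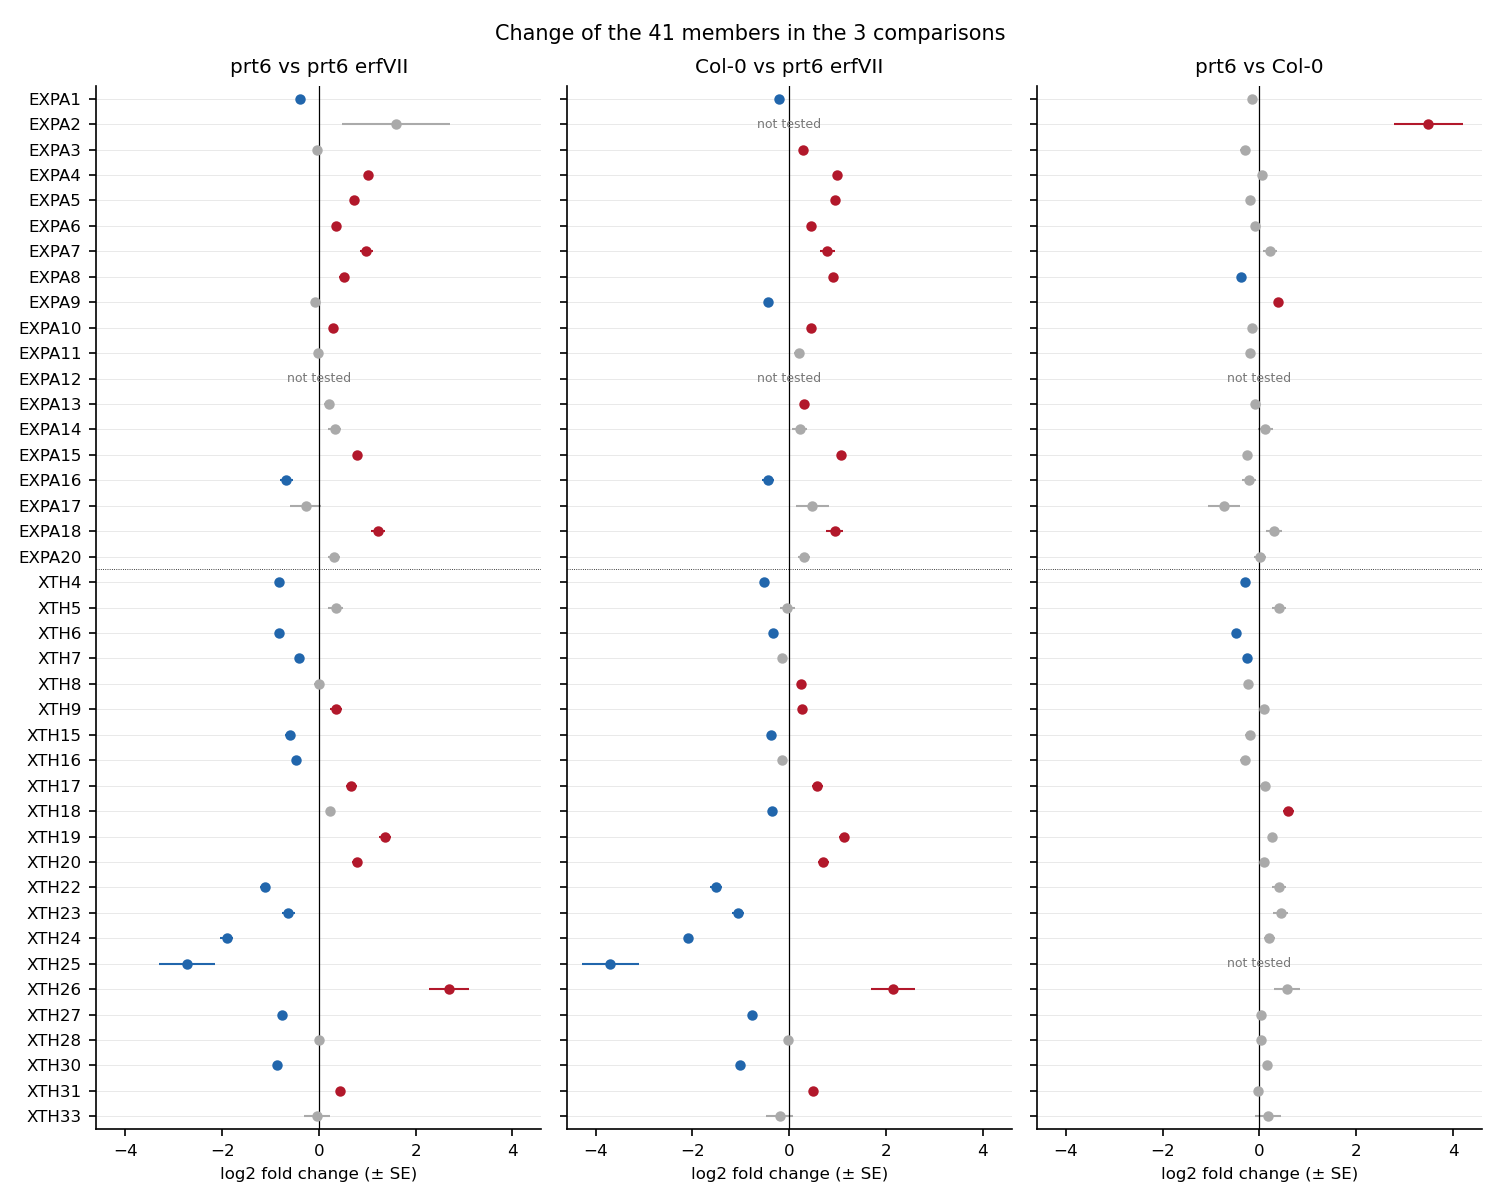
Log2 fold change (x axis, ± SE) of the 41 members (rows, alpha-expansins above the dotted line and XTH genes below it) in the 3 comparisons (panels). Red points were higher and blue points lower in the genotype named first at an adjusted p under 0.05, grey points were not called, and the points spread farthest from 0 in both comparisons with prt6 erfVII, from -3.69 for XTH25 to 2.69 for XTH26. XTH25 and XTH26 passed the filter on low counts there through the genotype where each was high.

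Among alpha-expansins not known from root hairs, EXPA4, EXPA5, EXPA15, EXPA8, EXPA6 and EXPA10 were all lower in prt6 erfVII than in both other genotypes. EXPA4 (AT2G39700) was at 107, 102, 95.2 and 117 CPM in the Col-0 libraries, 115, 105, 93.8 and 121 CPM in those labelled prt6, and 55.0, 52.4, 48.8 and 56.2 CPM in prt6 erfVII. Every prt6 erfVII library lay below every library of the other genotypes. The log2 fold change of EXPA4 was 1.02 ± 0.08 (SE, adjusted p = 1.47e-08) in prt6 vs prt6 erfVII, a 2.03-fold difference, and 0.99 ± 0.06 (SE, adjusted p = 2.38e-11) in Col-0 vs prt6 erfVII. EXPA15 showed the largest change of this group against Col-0. EXPA15 (AT2G03090) stood at 59.9, 60.9, 58.6 and 67.4 CPM in the Col-0 libraries, 52.3, 48.8, 47.2 and 56.7 CPM in those labelled prt6, and 29.9, 30.4, 26.8 and 30.4 CPM in prt6 erfVII. No prt6 erfVII library reached the lowest of the rest, and libraries labelled prt6 lay below those of Col-0 without overlap, although that difference was not called (log2 fold change -0.27 ± 0.07 (SE, adjusted p = 0.0509)). It was called by DESeq2, with RLE size factors, with no filter on low counts, in one fit over 12 libraries, with a replicate block and without prt6 replicate 4 (adjusted p = 0.00204 to 0.0477). The changes of EXPA15 were 0.79 ± 0.07 (SE, adjusted p = 2.41e-07) in prt6 vs prt6 erfVII and 1.07 ± 0.06 (SE, adjusted p = 4.82e-12) in Col-0 vs prt6 erfVII.

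EXPA5 is known for its part in the growth of the hypocotyl under brassinosteroids. EXPA5 (AT3G29030) measured 29.6, 28.9, 27.0 and 27.1 CPM in the Col-0 libraries, 25.9, 22.9, 22.5 and 26.1 CPM in those labelled prt6, and 13.9, 15.4, 15.5 and 13.9 CPM in prt6 erfVII. The 3 genotypes did not overlap, with Col-0 highest and prt6 erfVII lowest. Its log2 fold change was 0.72 ± 0.08 (SE, adjusted p = 2.75e-06) against libraries labelled prt6 and 0.94 ± 0.07 (SE, adjusted p = 6.52e-10) against Col-0, and the difference between libraries labelled prt6 and Col-0 was not called (-0.21 ± 0.08 (SE, adjusted p = 0.221)). EXPA8 had the same order of genotypes, also without overlap. EXPA8 (AT2G40610) was counted at 39.4, 38.2, 49.4 and 41.2 CPM in the Col-0 libraries, 33.0, 28.9, 34.0 and 32.5 CPM in those labelled prt6, and 18.9, 26.6, 23.0 and 20.9 CPM in prt6 erfVII. The change of EXPA8 was 0.51 ± 0.09 (SE, adjusted p = 0.00037) in prt6 vs prt6 erfVII and 0.92 ± 0.10 (SE, adjusted p = 1.27e-06) in Col-0 vs prt6 erfVII, and it was also lower in libraries labelled prt6 than in Col-0 (-0.39 ± 0.08 (SE, adjusted p = 0.0121)). That last call was lost without Col-0 replicate 3 (adjusted p = 0.0617) or prt6 replicate 2 (adjusted p = 0.0545). EXPA6 and EXPA10, the latter an expansin of leaf and petiole growth, changed less, with log2 fold changes of 0.35 and 0.29 in prt6 vs prt6 erfVII and of 0.45 and 0.45 in Col-0 vs prt6 erfVII, all called. EXPA3 and EXPA13 were lower in prt6 erfVII only against Col-0, by 0.28 and 0.31 on the log2 scale.

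EXPA1 and EXPA16 went the other way. EXPA1, the alpha-expansin with the highest level per length in each genotype, lay between 212 and 271 CPM in prt6 erfVII, between 173 and 192 CPM in libraries labelled prt6, and between 198 and 229 CPM in Col-0. Its libraries overlapped between Col-0 and prt6 erfVII but not between those labelled prt6 and prt6 erfVII. The log2 fold change was -0.38 ± 0.07 (SE, adjusted p = 0.000443) in prt6 vs prt6 erfVII and -0.21 ± 0.07 (SE, adjusted p = 0.0158) in Col-0 vs prt6 erfVII, and the latter call was lost without Col-0 replicate 2, Col-0 replicate 4 or prt6 erfVII replicate 2 (adjusted p = 0.0591, 0.0583 and 0.0733). EXPA16 lay between 6.01 and 7.44 CPM in prt6 erfVII and between 3.88 and 5.97 CPM in all other libraries. EXPA16 and EXPA4, which have 80.2% identical coding sequences, thus changed in opposite directions, with EXPA16 at -0.67 ± 0.13 (SE, adjusted p = 0.000762) in prt6 vs prt6 erfVII and -0.44 ± 0.13 (SE, adjusted p = 0.0112) in Col-0 vs prt6 erfVII.

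EXPA7, EXPA18 and XTH26 are members known to be expressed in root hairs, the tubular outgrowths of root epidermal cells, and EXPA7 is needed for their elongation. All 3 were lower in prt6 erfVII. The promoters of EXPA7 and EXPA18 are shown because they are the only ones among the members with a match to the root hair-specific element (RHE), by its consensus, in the 300 bases before the annotated start. The 150 bases before each start in the TAIR10.1 genome, both on the plus strand, are chr1:4276355-4276504 for EXPA7 and chr1:23331413-23331562 for EXPA18, with the RHE match in capitals.
EXPA7: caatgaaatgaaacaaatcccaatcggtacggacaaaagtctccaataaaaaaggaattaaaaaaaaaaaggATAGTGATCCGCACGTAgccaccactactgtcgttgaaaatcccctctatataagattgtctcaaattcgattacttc
EXPA18: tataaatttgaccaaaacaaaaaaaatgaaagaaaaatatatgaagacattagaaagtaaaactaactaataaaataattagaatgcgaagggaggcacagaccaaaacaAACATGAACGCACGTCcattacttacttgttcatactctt
The match began 78 bases before the start of EXPA7 and 40 bases before that of EXPA18. Of 27437 promoters searched on both strands, 251 (0.915%) held such a match. The hexamer CGTGCG overlapped the RHE match in both promoters and was found in 1.78% of all promoters on either strand. Most of its letters, read on the other strand, are already set by the RHE consensus, so the overlap is largely built in. The share of all promoters does not measure how unusual that overlap is. A match describes the letters only and is no evidence of binding.

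EXPA18 (AT1G62980) was at 5.97, 3.86, 6.58 and 7.83 CPM in the Col-0 libraries, 7.18, 7.75, 6.36 and 8.70 CPM in those labelled prt6, and 3.41, 3.17, 3.46 and 2.64 CPM in prt6 erfVII. All 4 prt6 erfVII libraries were below the lowest of the other 8. Its log2 fold change was 1.23 ± 0.14 (SE, adjusted p = 3.14e-06) in prt6 vs prt6 erfVII, a 2.35-fold difference, and 0.94 ± 0.18 (SE, adjusted p = 0.000253) in Col-0 vs prt6 erfVII. EXPA7 (AT1G12560) was at 8.15, 5.08, 8.34 and 7.20 CPM in the Col-0 libraries, 8.27, 6.83, 8.66 and 9.51 CPM in those labelled prt6, and 3.86, 4.80, 4.51 and 3.61 CPM in prt6 erfVII. The lowest Col-0 library was only just above the highest of prt6 erfVII. The change of EXPA7 was 0.98 ± 0.14 (SE, adjusted p = 2.54e-05) against libraries labelled prt6 and 0.78 ± 0.15 (SE, adjusted p = 0.000319) against Col-0. Each overlaps an opposite-strand gene at an exon (23 bases with AT1G12570 for EXPA7, 46 bases with AT1G62978 for EXPA18), and the use of strand in counting is not given in the sources used here. AT1G62978 had no count in any library, and AT1G12570 had 82 to 178 counts.

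XTH26 changed most among the members that were lower in prt6 erfVII. XTH26 (AT4G28850) was at 0.785, 0.946, 1.36 and 0.91 CPM in the Col-0 libraries, 1.23, 1.44, 1.73 and 1.52 CPM in those labelled prt6, and 0.334, 0.386, 0.0438 and 0.134 CPM in prt6 erfVII. The prt6 erfVII libraries held 9, 9, 1 and 4 counts, so that the level there rests on few reads, yet every other library held at least 18. XTH26 thus passed the filter on low counts in both comparisons with prt6 erfVII through the genotype where it was high. The log2 fold change was 2.69 ± 0.41 (SE, adjusted p = 6.32e-05) in prt6 vs prt6 erfVII and 2.14 ± 0.45 (SE, adjusted p = 0.000574) in Col-0 vs prt6 erfVII, and leaving out each library in turn gave 2.38 to 3.04 and 1.84 to 2.49. Among XTH genes outside the members, XTH12, XTH13 and XTH14, which are also known from roots and root hairs, were lower in prt6 erfVII as well. Their log2 fold changes in prt6 vs prt6 erfVII were 2.55 ± 0.20 (SE, adjusted p = 2.54e-08), 2.22 ± 0.33 (SE, adjusted p = 6.02e-05) and 1.41 ± 0.09 (SE, adjusted p = 2.32e-09).

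Other markers of root hair cells moved in the same direction. The list of 12 such markers was drawn up with earlier results of these data known, so its counts are a description. Of the 12, 10 (83.3%) were higher in libraries labelled prt6 than in prt6 erfVII and none lower, with a median log2 fold change of 1.10. Over all genes 14.7% were higher and 16.6% lower. In Col-0 vs prt6 erfVII 7 (58.3%) were higher and none lower, against 18.7% and 18.5% of all genes, with a median of 0.86. PRP3, a proline-rich wall protein of root hairs, changed by 1.84 ± 0.11 (SE, adjusted p = 5.17e-10), and RSL4, a transcription factor that drives hair growth, by 1.47 ± 0.33 (SE, adjusted p = 0.00215) in prt6 vs prt6 erfVII. The summed level of the 12 markers was 110 to 136 CPM in Col-0, 126 to 148 CPM in libraries labelled prt6 and 77.1 to 92.0 CPM in prt6 erfVII, and none of the 12 was at 0 in a genotype. CSLD3 alone held much of this sum, at 45.5, 48.7 and 44.3 CPM on average in the same order. CSLD3 and LRX2 were called in no comparison. Root markers of other tissues (13 genes) summed to 134 to 150 CPM, 144 to 175 CPM and 139 to 151 CPM in the same order, with 3 (23.1%) higher and 1 (7.69%) lower in prt6 vs prt6 erfVII and 1 (7.69%) higher and 3 (23.1%) lower in Col-0 vs prt6 erfVII. In prt6 vs prt6 erfVII those higher were PLT1 (0.91 ± 0.28 (SE, adjusted p = 0.0191)), PLT2 (1.02 ± 0.34 (SE, adjusted p = 0.0282)) and ESB1 (0.23 ± 0.08), and CASP5 was lower (-1.78 ± 0.53 (SE, adjusted p = 0.0193)). PLT1, PLT2 and CASP5 were at mean levels of 0.43 to 1.5 CPM, so the sum hardly shows them. In RNA of whole seedlings, fewer cells of a type and less RNA per cell cannot be told apart, and the part of root hair number in these values was not tested. Of 249 non-member genes with an RHE match, 177 passed the filter in prt6 vs prt6 erfVII, of which 48 (27.1%) were higher and 23 (13.0%) lower in libraries labelled prt6, against 14.7% and 16.6% of all genes (median log2 fold change 0.07).

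**Figure D2:**
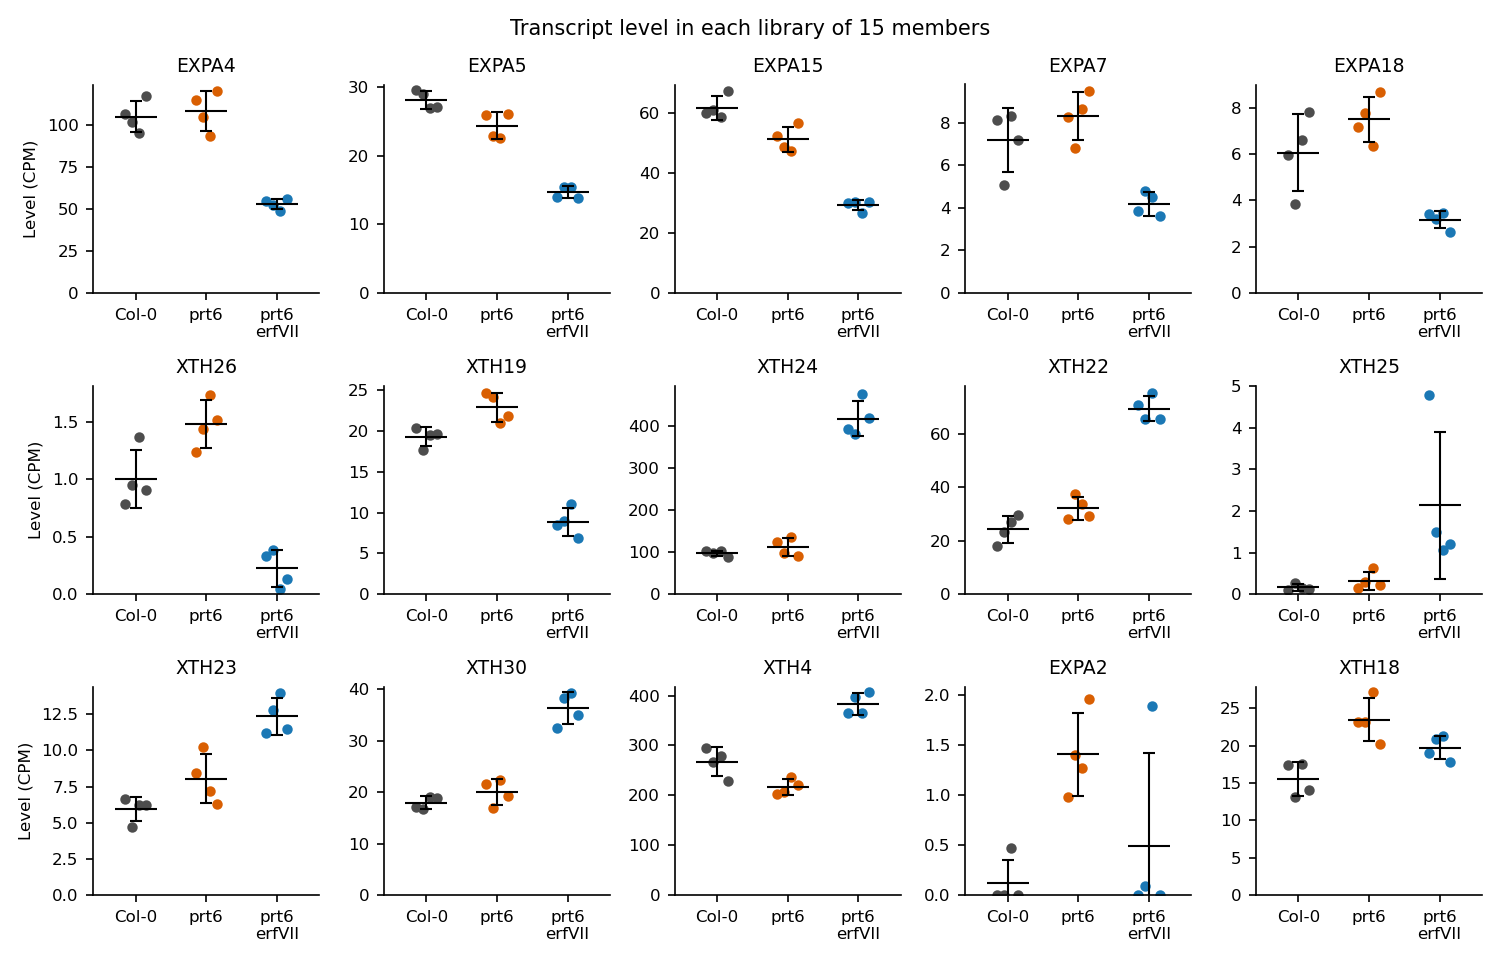
Level in CPM (y axis, from 0 in each panel) of 15 members in every library of Col-0 (grey), prt6 (orange) and prt6 erfVII (blue). Points are libraries, and bars are the mean ± SD of 4 libraries, clipped at 0. The prt6 erfVII libraries lie below all others from EXPA4 to XTH19 and above all others from XTH24 to XTH4, while EXPA2 and XTH18 are highest in libraries labelled prt6 on average, with prt6 erfVII libraries among them.

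The root XTH genes XTH17, XTH19 and XTH20 were also lower in prt6 erfVII. These genes belong with XTH18 to a closely related group known from roots, and their coding sequences are 79.6% to 87.6% identical to each other. XTH19 (AT4G30290) was at 20.4, 17.7, 19.5 and 19.6 CPM in the Col-0 libraries, 24.7, 24.1, 21.0 and 21.8 CPM in those labelled prt6, and 8.46, 8.96, 11.1 and 6.88 CPM in prt6 erfVII. The prt6 erfVII libraries did not overlap the others. Its log2 fold change was 1.37 ± 0.12 (SE, adjusted p = 6.90e-08) in prt6 vs prt6 erfVII, a 2.58-fold difference, and 1.13 ± 0.11 (SE, adjusted p = 2.91e-08) in Col-0 vs prt6 erfVII. XTH20 lay between 7.66 and 10.2 CPM in prt6 erfVII and between 13.4 and 16.9 CPM elsewhere, with changes of 0.79 ± 0.10 (SE, adjusted p = 7.85e-06) and 0.71 ± 0.11 (SE, adjusted p = 1.13e-05). XTH17 lay between 8.25 and 12.2 CPM in prt6 erfVII and between 13.7 and 18.9 CPM elsewhere, with changes of 0.67 ± 0.11 (SE, adjusted p = 0.00017) and 0.58 ± 0.12 (SE, adjusted p = 0.000636). All 75-base windows of the members' exons in the genome were unique to their gene, so related copies did not share such reads.

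XTH31, whose product cuts xyloglucan and has been tied to aluminium sensitivity, was lower in prt6 erfVII too, at 59.8 to 70.1 CPM against 79.7 to 99.0 CPM in the other libraries. It changed by 0.45 ± 0.07 (SE, adjusted p = 0.000147) in prt6 vs prt6 erfVII and by 0.50 ± 0.06 (SE, adjusted p = 8.49e-07) in Col-0 vs prt6 erfVII. XTH9 was called in both comparisons at 0.35 ± 0.12 (SE, adjusted p = 0.0427) and 0.27 ± 0.09 (SE, adjusted p = 0.0284), but its libraries overlapped. The call of XTH9 in prt6 vs prt6 erfVII was lost without prt6 replicate 2, 3 or 4 or prt6 erfVII replicate 3 or 4 (adjusted p = 0.0817 to 0.166), with no filter on low counts (0.0768) and with a replicate block (0.0894), and that in Col-0 vs prt6 erfVII without Col-0 replicate 1 or 2 or prt6 erfVII replicate 3 or 4 (adjusted p = 0.056 to 0.0848), with no filter (0.0533) and in one fit over 12 libraries (0.0992). XTH8 was lower in prt6 erfVII than in Col-0 only (0.24 ± 0.07 (SE, adjusted p = 0.0125)), a call lost without Col-0 replicate 1 or prt6 erfVII replicate 4 (adjusted p = 0.0522 and 0.068).

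XTH24, XTH22, XTH23 and XTH25 rose in prt6 erfVII against both other genotypes. XTH24 was first found as a gene of the meristem, and XTH22 was first found as TCH4, a gene switched on by touch. XTH24 (AT4G30270) was at 101, 98.5, 101 and 88.7 CPM in the Col-0 libraries, 124, 96.5, 136 and 91.1 CPM in those labelled prt6, and 392, 381, 476 and 419 CPM in prt6 erfVII. The lowest prt6 erfVII library, at 381 CPM, was far above the highest of the others, at 136 CPM. XTH24 changed by -1.91 ± 0.13 (SE, adjusted p = 1.22e-06) in prt6 vs prt6 erfVII, a 3.75-fold higher level in prt6 erfVII, and by -2.10 ± 0.07 (SE, adjusted p = 1.43e-15) in Col-0 vs prt6 erfVII, a 4.28-fold one. XTH22 (AT5G57560) was at 17.8, 23.1, 27.0 and 29.4 CPM in the Col-0 libraries, 28.1, 37.4, 33.8 and 29.0 CPM in those labelled prt6, and 71.0, 65.6, 75.3 and 65.5 CPM in prt6 erfVII. Again the prt6 erfVII libraries did not overlap the rest. The log2 fold change of XTH22 was -1.12 ± 0.09 (SE, adjusted p = 2.14e-08) and -1.51 ± 0.13 (SE, adjusted p = 6.33e-06) in the same order.

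XTH23 (AT4G25810) stood at 6.63, 4.73, 6.23 and 6.21 CPM in the Col-0 libraries, 8.41, 10.2, 7.17 and 6.33 CPM in those labelled prt6, and 11.2, 12.8, 14.0 and 11.5 CPM in prt6 erfVII. The highest library labelled prt6 came near the lowest of prt6 erfVII without reaching it. XTH23, whose coding sequence is 79.2% identical to that of XTH22, changed by -0.63 ± 0.13 (SE, adjusted p = 0.00138) in prt6 vs prt6 erfVII and by -1.05 ± 0.12 (SE, adjusted p = 2.17e-07) in Col-0 vs prt6 erfVII. XTH25 (AT5G57550) was at 0.0872, 0.276, 0.156 and 0.119 CPM in the Col-0 libraries, 0.145, 0.28, 0.636 and 0.222 CPM in those labelled prt6, and 4.79, 1.5, 1.05 and 1.20 CPM in prt6 erfVII. It was nearly silent outside prt6 erfVII, with 2 to 18 counts per library against 24 to 129 in prt6 erfVII, and the first prt6 erfVII library was far above its replicates. Its log2 fold change was -2.73 ± 0.59 (SE, adjusted p = 0.00347) and -3.69 ± 0.58 (SE, adjusted p = 0.000109), and leaving out each library in turn gave -3.31 to -1.95 and -4.09 to -2.92. Without prt6 erfVII replicate 1, the value was -1.95 (adjusted p = 0.00285) in prt6 vs prt6 erfVII and -2.92 (adjusted p = 2.06e-05) in Col-0 vs prt6 erfVII. XTH25 was not tested in prt6 vs Col-0, because its counts in those libraries were too low. It passed the filter in both other comparisons only through the prt6 erfVII libraries, where it was high, so its calls there are a description.

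Genes of touch and wounding outside both families moved in a like but mixed way. This list too was drawn up with earlier results of these data known. Of 10 such genes, 9 were tested, and 5 (55.6%) were lower and 3 (33.3%) higher in libraries labelled prt6 than in prt6 erfVII, with a median log2 fold change of -0.56. Over all genes these shares were 16.6% and 14.7%. In Col-0 vs prt6 erfVII 6 (66.7%) were lower and 1 (11.1%) higher, against 18.5% and 18.7% of all genes, with a median of -0.86. TCH3, a calmodulin-like gene found in the same screen as TCH4, was among those higher in prt6 erfVII, with a log2 fold change of -0.80 ± 0.06 (SE, adjusted p = 2.67e-08) in prt6 vs prt6 erfVII. CML38, a calmodulin-like gene known to be induced by low oxygen, was higher in libraries labelled prt6 by 1.55 ± 0.19 (SE, adjusted p = 5.59e-06) in the same comparison. The summed level of the 10 genes was 179 to 215 CPM in Col-0, 231 to 258 CPM in libraries labelled prt6 and 322 to 386 CPM in prt6 erfVII. TCH3 alone held much of this sum, at 96.1, 117 and 202 CPM on average in the same order. The part of these genes in the levels of XTH22 and its relatives was not tested.

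A further group of XTH genes also rose in prt6 erfVII. XTH30 (AT1G32170) was at 17.1, 16.7, 19.1 and 18.9 CPM in the Col-0 libraries, 21.6, 16.9, 22.4 and 19.3 CPM in those labelled prt6, and 32.4, 38.3, 39.3 and 35.1 CPM in prt6 erfVII. Both other genotypes lay below every prt6 erfVII library. XTH30 changed by -0.86 ± 0.09 (SE, adjusted p = 1.04e-06) in prt6 vs prt6 erfVII and by -1.01 ± 0.08 (SE, adjusted p = 2.81e-10) in Col-0 vs prt6 erfVII. XTH27, known as EXGT-A3 from the development of xylem vessels, lay between 184 and 201 CPM in prt6 erfVII and between 102 and 126 CPM elsewhere. Its change was -0.76 ± 0.06 (SE, adjusted p = 4.47e-08) and -0.77 ± 0.06 (SE, adjusted p = 4.01e-10), whereas XTH28, whose coding sequence is 77.4% identical to it, was at 55.5 to 66.2 CPM in all libraries and was not called in any comparison (log2 fold changes 0.01, -0.02 and 0.04).

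XTH4 and XTH7, the XTH genes with the highest levels per length in Col-0, belong to this group as well, together with XTH6, XTH15 and XTH16. XTH4 (AT2G06850) was at 295, 267, 279 and 228 CPM in the Col-0 libraries, 202, 207, 237 and 221 CPM in those labelled prt6, and 364, 396, 365 and 408 CPM in prt6 erfVII. The order was prt6 erfVII above Col-0 above libraries labelled prt6, with an overlap between the latter groups. XTH4 changed by -0.83 ± 0.07 (SE, adjusted p = 2.14e-08) in prt6 vs prt6 erfVII and by -0.52 ± 0.07 (SE, adjusted p = 2.10e-06) in Col-0 vs prt6 erfVII. XTH6 had the same order without overlap, at 85.7 to 104 CPM, 71.7 to 82.6 CPM and 47.4 to 62.5 CPM, and changed by -0.82 ± 0.08 (SE, adjusted p = 5.05e-07) and -0.32 ± 0.06 (SE, adjusted p = 0.000269). XTH7 and XTH16 were called in prt6 vs prt6 erfVII, at -0.42 and -0.46 on the log2 scale, and not in Col-0 vs prt6 erfVII (-0.15 and -0.15). With a replicate block both were called there (adjusted p = 0.046 and 0.0304), and XTH7 was also called with no filter on low counts (0.0424) and without Col-0 replicate 3 or prt6 erfVII replicate 1 (0.0176 and 0.00676). XTH15 was called in both, at -0.59 and -0.37, and overlaps the opposite-strand gene AT4G14120 over 382 exon bases, which had 34 to 89 counts per library.

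Members that lie next to each other on a chromosome did not move together in every case. XTH24, XTH18 and XTH19 follow each other on the minus strand of chromosome 4 (14819192 to 14820595, 14825757 to 14827211 and 14828712 to 14830224 in TAIR10.1), with no protein-coding gene between them. Per length, XTH24 was at 80.5 ± 4.89 CPM per kb of exon (SD) in Col-0, 92.5 ± 18.0 in libraries labelled prt6 and 344 ± 35.1 in prt6 erfVII. XTH18 was at 12.3 ± 1.79, 18.6 ± 2.28 and 15.6 ± 1.24, and XTH19 at 14.4 ± 0.872, 17.2 ± 1.33 and 6.63 ± 1.29. So XTH24 was higher and XTH19 lower in prt6 erfVII, with XTH18 between them in place and in change. XTH25 and XTH22 form the other pair, 565 bases apart on the minus strand of chromosome 5 (23304782 to 23306440 and 23307006 to 23308680), and both were higher in prt6 erfVII.

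XTH18 and XTH19 share 87.6% of their coding sequence, the highest share of any member pair. Their ratio was chosen after the values were seen and is given as a description. The level of XTH19 per length divided by that of XTH18 was 1.05 to 1.32 in Col-0, 0.731 to 1.02 in libraries labelled prt6 and 0.364 to 0.494 in prt6 erfVII. The stretches just before both starts are shown because the genes differ in change while their coding sequences are so alike. In TAIR10.1, minus strand, they are chr4:14827228-14827364 for XTH18 and chr4:14830225-14830333 for XTH19, and capitals mark the bases that are identical in the aligned pair (88 of 140 aligned columns).
XTH18: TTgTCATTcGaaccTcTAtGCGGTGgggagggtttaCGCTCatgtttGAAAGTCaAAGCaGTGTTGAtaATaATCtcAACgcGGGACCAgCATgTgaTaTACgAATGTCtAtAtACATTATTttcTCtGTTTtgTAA
XTH19: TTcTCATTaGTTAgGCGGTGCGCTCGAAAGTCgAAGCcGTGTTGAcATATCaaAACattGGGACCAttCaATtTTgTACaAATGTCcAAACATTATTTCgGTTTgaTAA
The alignment includes gaps, so the lengths differ (137 and 109 bases). In the 300 bases before the starts, CGCGTT, a hexamer of the rapid stress response element, was found in XTH18 and not in XTH19, and in 3.08% of all promoters on either strand. It was also found in XTH20 of the same group, which was lower in prt6 erfVII as XTH19 was. The part of this hexamer in these levels was not tested.

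**Figure D3:**
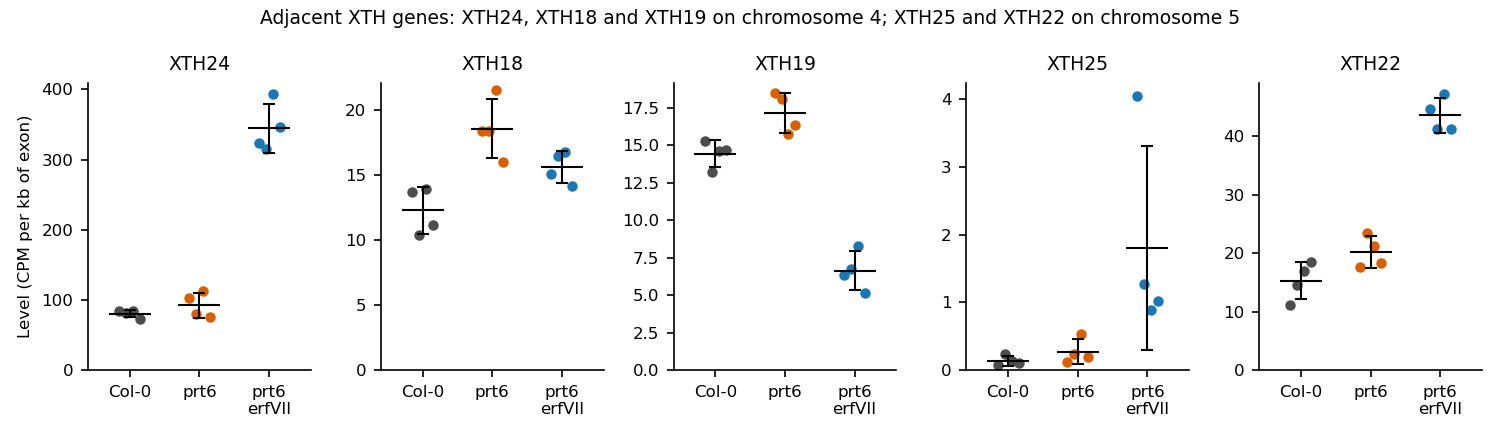
Level per length (CPM per kb of exon, y axis from 0) of 5 XTH genes in each library (points) by genotype, with the mean ± SD of 4 libraries. Of the neighbours on chromosome 4, XTH24 is highest in prt6 erfVII (344 CPM per kb on average), XTH18 is highest in libraries labelled prt6 and XTH19 is lowest in prt6 erfVII, while XTH25 and XTH22 on chromosome 5 are both highest in prt6 erfVII.

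Few members differed between libraries labelled prt6 and Col-0. EXPA2, an expansin known from germinating seeds, and XTH18 had the largest calls. EXPA2 (AT5G05290) was at 0, 0, 0.467 and 0 CPM in the Col-0 libraries, 0.979, 1.40, 1.27 and 1.96 CPM in those labelled prt6, and 0, 0.0858, 1.88 and 0 CPM in prt6 erfVII. In counts this was 0, 0, 12 and 0 against 27, 35, 36 and 53, with 0, 2, 43 and 0 in prt6 erfVII, so that the groups did not overlap in prt6 vs Col-0 but a single prt6 erfVII library was as high as those labelled prt6. EXPA2 passed the filter on low counts in prt6 vs Col-0 only through libraries labelled prt6, where it was high. It was not tested in Col-0 vs prt6 erfVII, where its counts were too low. The log2 fold change of EXPA2 in prt6 vs Col-0 was 3.49 ± 0.71 (SE, adjusted p = 0.0197). It was not called by DESeq2 (adjusted p = 0.276), in one fit over 12 libraries (adjusted p = 0.333) or without prt6 replicate 2 (adjusted p = 0.0588), and leaving out each library in turn gave 3.09 to 8.19, with the highest value without Col-0 replicate 3, where Col-0 had no count left and the size of the value depends on the fit's prior count. In prt6 vs prt6 erfVII it was not called (1.59 ± 1.12 (SE, adjusted p = 0.342)), but was without prt6 erfVII replicate 3 (log2 fold change 5.55, adjusted p = 9.33e-06). EXPA2 shares 61 exon bases with the opposite-strand gene AT5G05300, which had 1 to 9 counts per library.

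XTH18 (AT4G30280) was at 17.3, 13.1, 17.6 and 14.1 CPM in the Col-0 libraries, 23.2, 23.2, 27.2 and 20.2 CPM in those labelled prt6, and 19.0, 20.8, 21.2 and 17.9 CPM in prt6 erfVII. All libraries labelled prt6 were above all Col-0 libraries, and those of prt6 erfVII lay in between with some overlap with the former. XTH18 changed by 0.60 ± 0.11 (SE, adjusted p = 0.00281) in prt6 vs Col-0 and by -0.34 ± 0.10 (SE, adjusted p = 0.00624) in Col-0 vs prt6 erfVII, and was not called in prt6 vs prt6 erfVII (adjusted p = 0.0606), other than without prt6 replicate 4 (0.00893) or with no filter on low counts (0.0474). EXPA9 was likewise lowest in Col-0, but libraries labelled prt6 and those of prt6 erfVII lay at a like level and overlapped. It was at 16.05 to 19.3 CPM in Col-0, 22.7 to 24.3 CPM in libraries labelled prt6 and 22.7 to 28.5 CPM in prt6 erfVII. It changed by 0.37 ± 0.08 (SE, adjusted p = 0.0131) in prt6 vs Col-0, a call lost without Col-0 replicate 3 (adjusted p = 0.0687), and by -0.43 ± 0.08 (SE, adjusted p = 0.000294) in Col-0 vs prt6 erfVII. The latter call was kept in every alternative run, at an adjusted p of at most 0.00194. EXPA9 lies on chromosome 5 at 463073 to 465273, 8595 bases from PRT6 (473868 to 482942), and both mutants are labelled with the prt6-1 allele, so that linkage to that locus and an effect of the allele cannot be told apart. The next nearest member to a mutated gene, EXPA12, lay 451 kb from RAP2.2.

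XTH6, XTH4 and XTH7 were lower in libraries labelled prt6 than in Col-0. XTH6 changed by -0.48 ± 0.08 (SE, adjusted p = 0.000967) and kept its call without any single library. XTH4 (-0.30 ± 0.07 (SE, adjusted p = 0.0357)) and XTH7 (-0.25 ± 0.06 (SE, adjusted p = 0.0396)) each lost it without Col-0 replicate 1, 2 or 3 or prt6 replicate 1 or 2, with adjusted p = 0.0998 to 0.148 for XTH4 and 0.0777 to 0.157 for XTH7. Without prt6 replicate 4, EXPA3, EXPA15, XTH19 and XTH23 were also called (adjusted p = 0.0102, 0.00204, 0.0453 and 0.0252), EXPA3 was so by DESeq2 (0.0451) and with no filter (0.0396) too, and XTH22 was called with a replicate block (0.034).

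The members that were called in no comparison were EXPA11, EXPA14, EXPA17, EXPA20, XTH5, XTH28 and XTH33. EXPA14 and EXPA17 are known from lateral root emergence, and XTH33 is an XTH held at the plasma membrane. Their log2 fold changes ranged from -0.27 to 0.35 in prt6 vs prt6 erfVII and from -0.19 to 0.48 in Col-0 vs prt6 erfVII, and from -0.74 to 0.40 in prt6 vs Col-0. Leaving out a single library gave a call for EXPA14, EXPA11 or EXPA20 (EXPA20 shares 985 exon bases with AT4G38215, which had 13 to 28 counts per library). EXPA17 and XTH33 were at 0.594 to 2.1 and 0.928 to 1.6 CPM, where the SE of the log2 fold change was 0.26 to 0.34, so that a small change was not detectable at this depth. EXPA12 was tested in no comparison, with at most 9 counts in a library.

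Per length, mean levels of the members ran from 0.0167 CPM per kb of exon (EXPA12 in prt6 erfVII) to 344 (XTH24 in prt6 erfVII). EXPA1 had the highest level of the alpha-expansins in each genotype, at 135 ± 8.93 CPM per kb of exon (SD) in Col-0, 121 ± 6.10 in libraries labelled prt6 and 156 ± 15.7 in prt6 erfVII. EXPA4 and EXPA6 followed in Col-0, at 70.2 ± 6.18 and 65.2 ± 2.85, which lie within their spread of each other, and changed places in prt6 erfVII, at 35.4 ± 2.16 and 47.8 ± 3.43. Among XTH genes, XTH7 was highest in Col-0 at 199 ± 15.3, ahead of XTH4 at 166 ± 17.7. In prt6 erfVII, XTH24 was highest at 344 ± 35.1, up from rank 4 in both other genotypes, and XTH4 and XTH7 followed at 237 ± 13.6 and 221 ± 18.0, within their spread of each other. EXPA12 was lowest of all in Col-0 at 0.0771 CPM per kb, close to EXPA2 at 0.114 and XTH25 at 0.135.

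The summed levels of the families moved apart. Alpha-expansin transcripts summed to 716 to 752 CPM in Col-0, 649 to 731 CPM in libraries labelled prt6 and 563 to 640 CPM in prt6 erfVII. XTH transcripts summed to 1220 to 1350 CPM, 1162 to 1295 CPM and 1788 to 1922 CPM. The prt6 erfVII libraries lay below the others for the first sum and above them for the second, with no overlap. Without EXPA1, the first sum was 530.3 ± 13.3 CPM (SD) in Col-0, 494 ± 32.5 CPM in libraries labelled prt6 and 356 ± 10.9 CPM in prt6 erfVII, and the second without XTH4, the most abundant XTH gene over all 12 libraries, was 1030 ± 32.5 CPM, 1008 ± 51.4 CPM and 1485 ± 54.9 CPM. XTH24 held more of the rise than XTH4, and without XTH24 the XTH sum was 1200 ± 49.9 CPM, 1113 ± 65.6 CPM and 1452 ± 42.8 CPM.

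**Figure D4:**
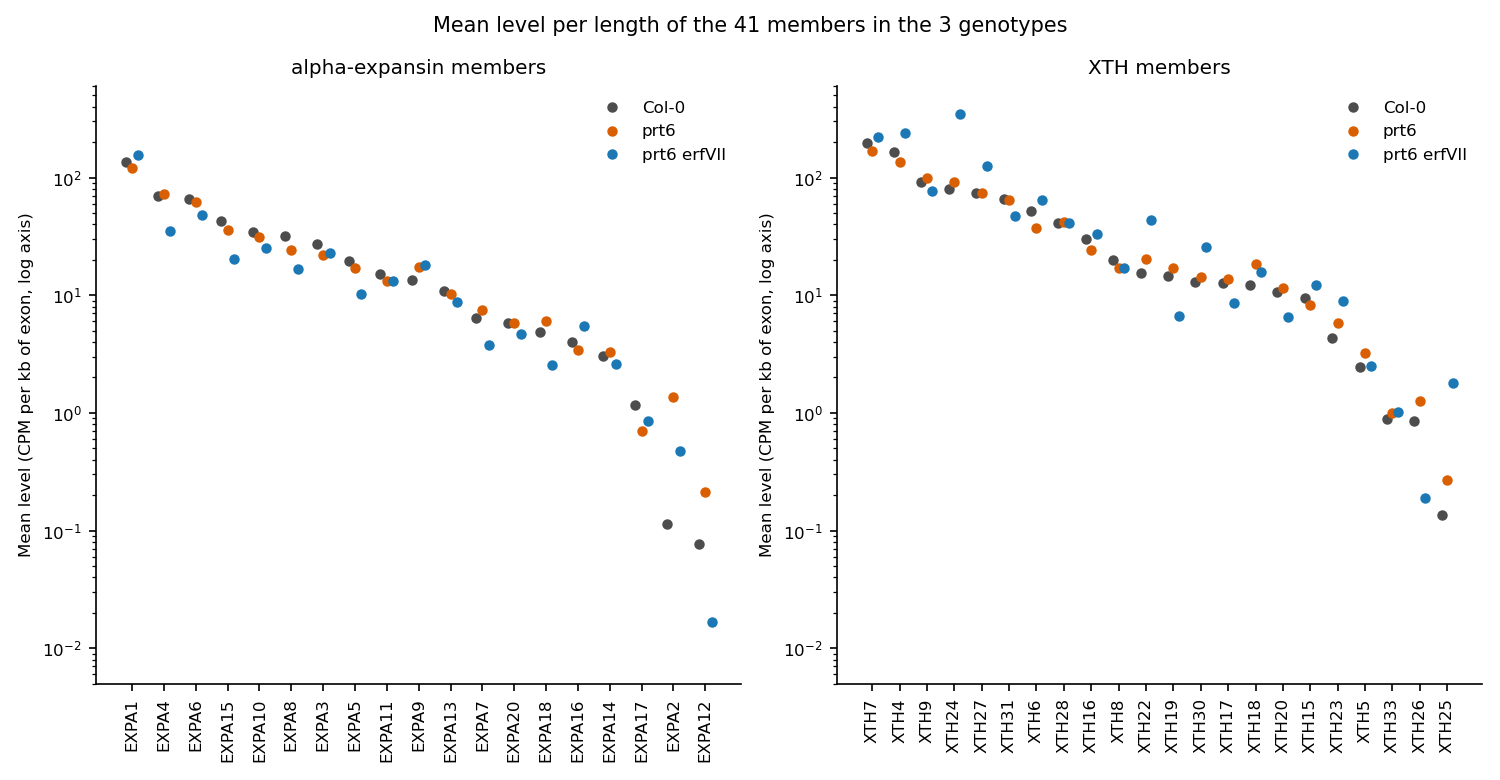
Mean level per length (CPM per kb of exon, log axis) of the 19 alpha-expansin and 22 XTH members, ordered by their level in Col-0, in Col-0 (grey), prt6 (orange) and prt6 erfVII (blue). Points are means of 4 libraries, and XTH24 moves from 80.5 in Col-0 to 344 in prt6 erfVII, while EXPA4 moves from 70.2 to 35.4.

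Related genes outside the members were lower in prt6 erfVII in most of the cases called. Of 17 other expansins, 6 were tested, and the beta-expansins EXPB1 and EXPB3 and the expansin-like EXLB1 were lower in prt6 erfVII than in both other genotypes, with EXPB3 at 1.05 ± 0.08 (SE, adjusted p = 7.53e-09) in prt6 vs prt6 erfVII, while the expansin-like EXLA1 was higher (-0.64 ± 0.11 (SE, adjusted p = 0.000142)). Of 11 other XTH genes, 6 or 7 were tested in these comparisons, and only XTH12, XTH13 and XTH14 were called. Neither list had a call in prt6 vs Col-0 by edgeR or DESeq2, where 1 other expansin and 0 other XTH genes had an unadjusted p under 0.05. Genes that make and trim xyloglucan, the substrate of XTHs, were called no more often than all genes in prt6 vs prt6 erfVII, where 2 of 16 (12.5%) were higher and 1 (6.25%) lower, against 14.7% and 16.6%. In Col-0 vs prt6 erfVII 6 (37.5%) were higher and 2 (12.5%) lower, against 18.7% and 18.5%. XXT1, a xylosyltransferase of the xyloglucan side chain, was higher in prt6 erfVII, at -0.43 ± 0.09 (SE, adjusted p = 0.000734) in prt6 vs prt6 erfVII, and XLT2, which adds galactose to it, was lower, at 0.56 ± 0.07 (SE, adjusted p = 1.08e-05).

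Among genes of cellulose synthesis and the proton pumps that acidify the wall, some members of each list were called in both comparisons with prt6 erfVII, other than those of the secondary wall. Of 10 genes of primary wall cellulose synthesis, 2 were higher and 1 lower in prt6 vs prt6 erfVII. The median log2 fold change of the list there was -0.10. In Col-0 vs prt6 erfVII, 1 was higher and 3 lower. Over all genes tested, 14.7% were higher and 16.6% lower in the first comparison, and 18.7% and 18.5% in the second. For a list of 10 genes, these counts lie near the shares of all genes. None of 3 secondary wall cellulose synthase genes was called in any comparison by edgeR or DESeq2, and 0 had an unadjusted p under 0.05. Of 11 plasma membrane proton pumps, 9 were tested, and AHA2 and AHA7 were lower in prt6 erfVII in both comparisons. These were 22.2% of the pumps tested, against 14.7% and 18.7% of all genes in the same direction, and no pump was called in the other direction. AHA7 changed by 1.17 ± 0.12 (SE, adjusted p = 5.11e-07) and AHA2 by 0.25 ± 0.08 (SE, adjusted p = 0.0152) in prt6 vs prt6 erfVII. Of 12 genes of brassinosteroid synthesis and signalling, a hormone pathway known to drive wall loosening, 1 was higher and 3 lower in prt6 vs prt6 erfVII and 3 higher and 4 lower in Col-0 vs prt6 erfVII. The second pair of counts is 25.0% and 33.3% of the list, against 18.7% and 18.5% of all genes. The first pair is 8.33% and 25.0% of the list, against 14.7% and 16.6% of all genes. The 4 called there were the synthesis gene BR6OX1, at 1.02 ± 0.26 (SE, adjusted p = 0.00491), the synthesis gene CPD, at -0.32 ± 0.06 (SE, adjusted p = 0.000611), the receptor BRI1, at -0.29 ± 0.08 (SE, adjusted p = 0.0128), and BIN2, a kinase that dampens brassinosteroid signals, at -0.38 ± 0.06 (SE, adjusted p = 9.94e-05). Green shoot markers (10 genes) summed to 48800 to 51830 CPM in Col-0, 43270 to 48990 CPM in libraries labelled prt6 and 42540 to 48630 CPM in prt6 erfVII. None of these 10 was higher and 2 were lower in prt6 vs prt6 erfVII, against 14.7% and 16.6% of all genes. In Col-0 vs prt6 erfVII, 6 were higher and 1 lower, against 18.7% and 18.5% of all genes. In prt6 vs Col-0, 5 of the 10 were lower, against 1.09% of all genes. The part of shoot share in the members' values was not tested.

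Other motifs were searched on both strands of the 300 bases before the members' starts. The hypoxia-responsive promoter element (HRPE, by its consensus) was found in no member and in 0.0182% of all promoters (5 of 27437). With so rare a match none was to be expected among the members, so its absence says nothing about them. The study scanned a longer promoter region and the gene locus by another method, and reported the element for many genes that differed between prt6 and prt6 erfVII. CGCGTT was found in 4 members (EXPA6, EXPA12, XTH18 and XTH20), the G-box CACGTG was found in 1 member, EXPA2, and 7.09% of promoters, the auxin hexamer TGTCTC in 6 members and 13.0%, and the GCC-box GCCGCC in no member and 2.26%. No match says only that these letters are not in this window.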

How the data were processed

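RNAseq of whole seedlings of 3 genotypes was used, with 4 biological replicates each. For each paired-end library the authors removed adaptors with skewer, aligned reads to TAIR10 by HISAT2 2.1.0, retained those mapped uniquely, and obtained gene counts from featureCounts 1.6.0. The deposited values are these raw counts, with no normalization. Libraries came from a directional kit, and the strand setting in counting is not given in the sources used here. All columns were assigned to a sample (0 left over).

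Counts were fitted in R 4.3.3 with edgeR 4.0.16 (TMM, filterByExpr, robust quasi-likelihood test, Benjamini-Hochberg adjustment over all genes tested, threshold 0.05), each comparison on its own 8 libraries. The SE given with a log2 fold change is its absolute value divided by the square root of that test's F statistic. The fit was tested on simulated counts. Positions, exon lengths and sequences came from the TAIR10.1 genome and annotation of RefSeq, read with Python 3.11.15 and Biopython 1.88. Every member is named. Up to 10 members per comparison with an adjusted p under 0.05 and an absolute log2 fold change of at least 0.5, by size, are described by library, as are those with the highest level per length, and others by range. The members and the gene lists were chosen with earlier results of these data known, and the chromosome neighbours, the distances to mutated genes and the motifs were examined after values were seen. Alternatives were a replicate block, DESeq2 1.42.0, a single fit of all 12 libraries, RLE size factors, filters of no minimum or of 10 counts on average, an adjusted p under 0.01, and each library left out.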

Additional observations from a re-analysis of the deposited data

Results flagged for a closer look

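Within the 4 libraries of a genotype, 9 of 122 sets of member values held a library whose gap to the nearest other exceeded Dixon's 95% critical share of the range. Chance flags about 1 in 20 such sets, and no cause was tested. The highest library stood apart for XTH25 in prt6 erfVII replicate 1 (4.79 CPM against 1.05 to 1.5 CPM), for EXPA2 in prt6 erfVII replicate 3 (1.88 CPM against 0 to 0.0858 CPM) and in Col-0 replicate 3 (0.467 CPM, the others at 0), for EXPA20 in prt6 replicate 1 (7.22 CPM against 6.47 to 6.55 CPM), and for XTH33 in Col-0 replicate 2 (1.30 CPM against 0.989 to 1.01 CPM). The lowest library stood apart for EXPA1 in prt6 replicate 2 (173 CPM against 191 to 192 CPM), for EXPA9 in Col-0 replicate 3 (16.05 CPM against 18.8 to 19.3 CPM), for EXPA12 in prt6 replicate 3 (0.0353 CPM against 0.290 to 0.333 CPM), and for EXPA15 in prt6 erfVII replicate 3 (26.8 CPM against 29.9 to 30.4 CPM). How the calls of EXPA2, EXPA9 and XTH25 depend on these libraries is described with those genes in the report.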

How the results depend on the processing

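Of the called member changes of at least 0.5 on the log2 scale that were described by library, none reversed under any alternative run, and only EXPA2 in prt6 vs Col-0 lost its call. With an adjusted p under 0.01, members called in prt6 vs Col-0 fell to 1 higher and 1 lower (from 3 and 4), all genes called there to 115 and 106 (from 227 and 228), and all genes higher in prt6 vs prt6 erfVII to 1941 (from 3056). DESeq2 called 364 genes lower in prt6 vs Col-0. Leaving out each library in turn gave 2 to 5 members higher and 1 to 6 lower in prt6 vs Col-0, with 140 to 576 and 141 to 655 among all genes, highest without prt6 replicate 4. It gave 13 to 15 higher and 13 lower members in prt6 vs prt6 erfVII, whereas Col-0 vs prt6 erfVII had 16 to 18 and 12 to 14. Without EXPA1 the alpha-expansin sum was 530.3, 494 and 356 CPM in Col-0, prt6 and prt6 erfVII. The XTH sum was 1030, 1008 and 1485 CPM without XTH4, and 1200, 1113 and 1452 CPM without XTH24, an alternative chosen after seeing the data.

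With a replicate block, the members called higher and lower were 13 and 13 (prt6 vs prt6 erfVII), 17 and 15 (Col-0 against prt6 erfVII) and 4 and 5 (prt6 vs Col-0). The replicate numbers are not known to pair libraries, since same-numbered deviations correlated at -0.08 to 0.16, over 0.1 in 2 of 12 pairs, and 3 of 12 were highest for their own number. Depth limits EXPA2, EXPA12, EXPA17, XTH25, XTH26 and XTH33, which had few counts, and intervals from replicates cover these libraries only.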
